A study of Mus musculus with 16 samples.

Results

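The 10 genes described here encode the alpha- and beta-tubulins that were measured in cultured islets of db/db mice: the alpha-tubulins Tuba1a, Tuba1b, Tuba1c and Tuba4a, and the beta-tubulins Tubb5, Tubb6, Tubb4b, Tubb2a, Tubb3 and Tubb2b. They were picked by gene symbol out of the 54532 genes of the count table, and all 10 were among the 16910 genes that passed the filter on low counts and were tested. The list was chosen by measured values of these same samples, namely baseline level, isotype share and the difference between adjudin and DMSO, so those values are given as a description and no p value is attached to any of the 10 genes. Adjudin is a small molecule known from work on the testis, where it detaches immature spermatids from the epithelium. Islets came from male db/db mice of the strain BKS(D)-Leprdb/JOrlRj, which lack a working leptin receptor, at 12 to 13 weeks of age. After isolation the islets were left overnight to recover. They then spent 1 day in RPMI, at 11 mmol/l glucose, with 10 µmol/l adjudin (8 samples) or the solvent DMSO (8 samples). Each sample carried a batch number from 1 to 8, every number occurred once per treatment, and a sample held the islets of a single mouse or of a pooled pair. Total counts per sample were 24852862 to 34471164 with adjudin and 24190102 to 32675186 with DMSO.

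Tubulin is a dimer of 1 alpha and 1 beta chain, and dimers stack end to end into the microtubules along which kinesin and dynein motors carry cargo. In beta cells, microtubules form a dense meshwork that moves insulin granules and also holds them back from the plasma membrane. Mammals have several genes for each chain, called isotypes, which differ most in the acidic tail at the C-terminus. Cells also adjust tubulin mRNA to the amount of free dimer: in mammalian cells the factor TTC5 recognises the first residues of a tubulin chain as it leaves the ribosome, and the mRNA is then degraded when free dimer is plentiful. Neither tubulin protein nor polymer was measured in these data.

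Only short stretches of coding sequence are given here. The first 12 coding bases are shown because they encode the residues read by that mRNA control, with codons 2 to 4 in capitals (GENCODE M21, GRCm38, coding strand).
Tuba1a: atgCGTGAGTGC
Tuba1b: atgCGTGAGTGC
Tuba1c: atgCGTGAGTGC
Tuba4a: atgCGCGAGTGC
Tubb5: atgAGGGAAATC
Tubb4b: atgAGGGAGATC
Tubb3: atgAGGGAGATC
Tubb2a: atgCGCGAGATC
Tubb2b: atgCGAGAGATC
The alpha genes shared the fourth codon TGC and the beta genes shown the fourth codon ATC, and the other differences lay in synonymous bases.

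The last 45 coding bases before the stop codon encode the tail. They are shown for the closest beta pair, because long stretches of these genes are identical, with capitals where Tubb2b differs from Tubb2a.
Tubb2a: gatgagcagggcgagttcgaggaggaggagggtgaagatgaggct
Tubb2b: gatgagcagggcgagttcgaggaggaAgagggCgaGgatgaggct
Tubb2b differed at 3 of these bases, all of them synonymous, so both tails encode the same residues.

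How far reads can be told apart follows from such likeness. Over the whole coding sequence, Tuba1a and Tuba1b had 98.3% identical bases, Tuba1b and Tuba1c 97.9%, Tuba1a and Tuba1c 97.1%, and Tubb2a and Tubb2b 96.5%, against 80.2% to 85.7% for all other pairs within the alpha or the beta genes. Of all stretches of 150 bases (1 read) along the principal transcript, 54.7% in Tuba1a, 57.9% in Tuba1b and 46.7% in Tuba1c also occurred in another gene. The other genes included each other, pseudogenes and Gm49450, which is annotated as protein-coding. The share of stretches found in another gene was 27.9% in Tubb2a, 20.1% in Tubb2b and 16.8% in Tubb4b, and 0 in Tubb3, Tubb5 and Tubb6. In Tuba4a it was 45.7%, all of it in a non-coding end that overlaps the neighbouring gene Stk16. The sources used here do not say whether reads with several possible places were counted, or whether strand was used. The levels of Tuba1a, Tuba1b and Tuba1c, and the split among them, are therefore less certain than the values of Tubb3, Tubb5 and Tubb6. The same holds for the levels of Tubb2a and Tubb2b, the split between them, and the levels of Tubb4b and Tuba4a. Pseudogenes of the count table that share these stretches took few reads, the highest being Gm3756 with 8.25 CPM in adjudin samples and 9.26 CPM in DMSO samples. Such low counts do not show where shared reads were placed, since those reads may not have been counted.

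Levels are given as CPM (read counts relative to library size, scaled by edgeR's TMM factors) and, to compare genes, as CPM per kilobase of gene length. Tuba1a (158 CPM per kilobase with adjudin and 182 with DMSO) and Tubb5 (165 with adjudin and 179 with DMSO) were the most abundant isotypes. They could not be ordered, since Tuba1a was above Tubb5 in only 2 of 8 adjudin samples and 3 of 8 DMSO samples. Tuba1b (93.3 and 107 CPM per kilobase with adjudin and DMSO), Tubb6 (81.1 and 90.0) and Tubb4b (75.7 and 80.8) followed, with Tubb6 overlapping both Tuba1b and Tubb4b in range under each treatment. Tuba1c (58.7 with adjudin and 65.7 with DMSO) was below Tubb4b in all 8 samples of each treatment. Tubb2a (44.9 and 52.6 CPM per kilobase) and Tubb3 (30.6 and 36.9), the class III isotype known as a marker of neurons, came next, each below the one before in all 16 samples. Tubb2b (17.5 with adjudin and 19.3 with DMSO) and Tuba4a (17.8 with adjudin and 18.2 with DMSO) were the lowest, and neither was above the other in most DMSO samples (4 of 8). All of these levels are of whole islets, which hold several cell types.

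In the comparison of adjudin with DMSO within batches, all 10 fitted log2 fold changes were below 0, with a median of -0.15, where the median over all 16910 tested genes was 0.0032 and 48.6% of them were below 0. With an adjusted p under 0.05 in edgeR's quasi-likelihood test, with batch as a term, 7 of the 10 genes were called lower and 0 higher. Among all tested genes 5.24% were called, 2.17% higher and 3.07% lower. Because the genes were selected on this contrast, the count describes them and nothing is read from it. Over the 10 genes and 8 batches, the adjudin sample was the lower in 71 of 80 pairs. The fitted log2 fold changes corresponded to changes from -17.1% (Tubb3) to -2.13% (Tuba4a).

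**Figure D1:**
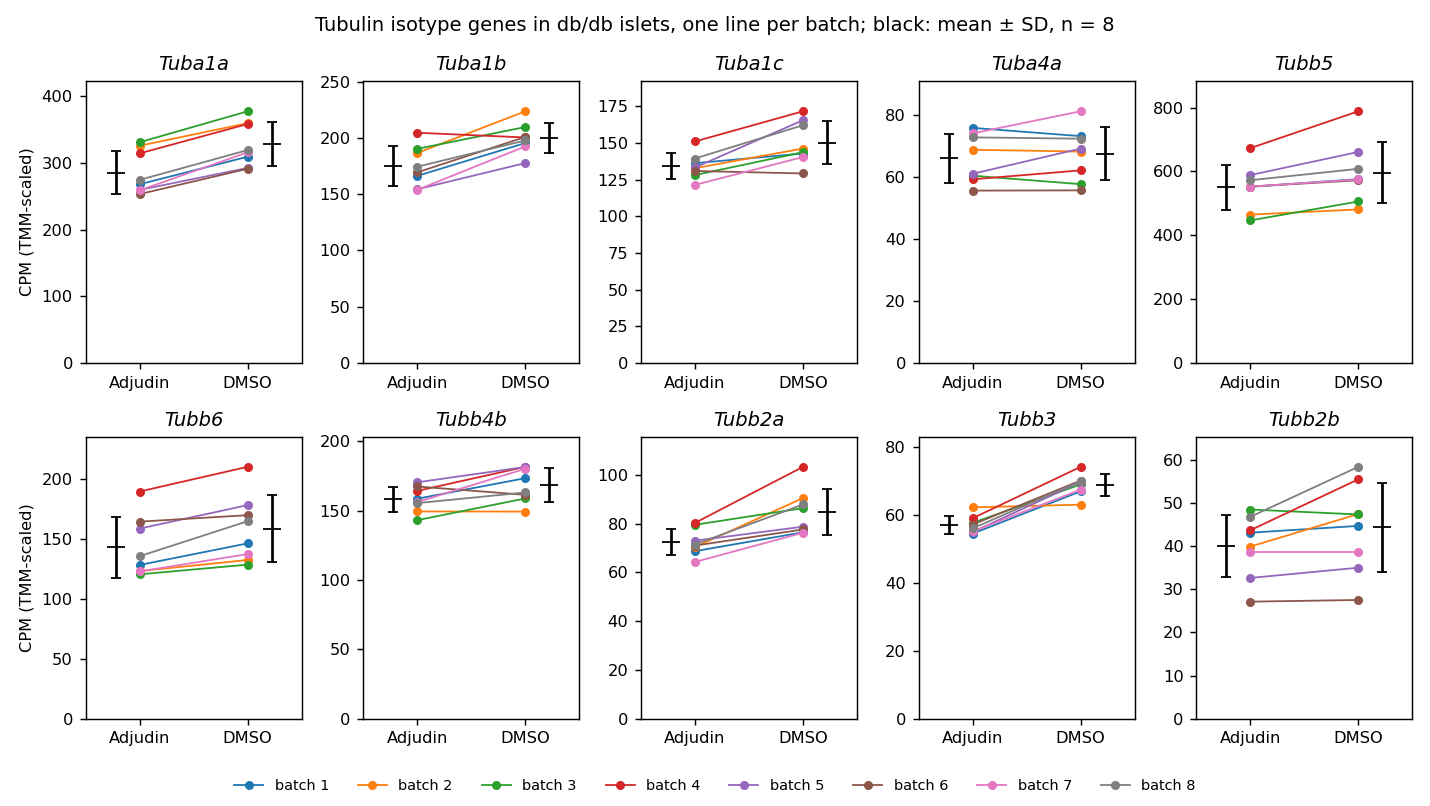
CPM (TMM-scaled, axis from 0) of each tubulin gene in the 8 adjudin samples (left) and the 8 DMSO samples (right) of each panel, with a line joining the samples of a batch and black marks for the mean ± SD (n = 8). Most lines are lower on the adjudin side, and in Tubb3 the adjudin samples (54.6 to 62.3 CPM) do not overlap the DMSO samples (63.1 to 74.2 CPM).

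Of the alpha-tubulins, Tuba1a (ENSMUSG00000072235, GRCm38 chromosome 15, 98949837 to 98953703, minus strand) is the isotype best known from developing neurons. It had 253, 271 and 331 CPM (lowest, median, highest) with adjudin and 291, 318 and 377 CPM with DMSO. It was lower with adjudin in 8 of 8 batches, although the ranges overlapped, with means of 286 ± 32.4 CPM with adjudin and 328 ± 32.8 CPM with DMSO (SD, n = 8 each). Its log2 fold change was -0.20 (SE 0.026), and its within-batch differences had the narrowest spread of the 10 genes, from -0.29 to -0.14. Tuba1b (ENSMUSG00000023004, chromosome 15, 98931425 to 98934565, minus strand), an isotype found in most tissues, had 154, 172 and 205 CPM with adjudin and 178, 199 and 224 CPM with DMSO. The adjudin sample was the lower in 7 of 8 batches and the higher in batch 4 (205 CPM with adjudin, 200.4 CPM with DMSO), for a log2 fold change of -0.19 (SE 0.035). Tuba1c (ENSMUSG00000043091, chromosome 15, 99029891 to 99038110, plus strand), of the same cluster of genes, had 121, 133 and 151 CPM with adjudin and 129, 145 and 172 CPM with DMSO. It too was lower in 7 of 8 batches, with batch 6 the exception (131 CPM with adjudin, 129 CPM with DMSO), and its log2 fold change was -0.16 (SE 0.033).

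Tuba4a (ENSMUSG00000026202, chromosome 1, 75214228 to 75219865, minus strand), the isotype without an encoded tyrosine at its end, stood apart from the other alpha genes. It had 55.5, 64.8 and 75.8 CPM with adjudin and 55.6, 68.6 and 81.1 CPM with DMSO. The ranges nearly coincided, the adjudin sample was the lower in 4 of 8 batches, and the log2 fold change was -0.031 (SE 0.032). The overlapping gene Stk16 averaged 55.1 CPM with adjudin and 55.9 CPM with DMSO.

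Of the beta-tubulins, Tubb3 (ENSMUSG00000062380, chromosome 8, 123411424 to 123422015, plus strand) had the largest difference. It had 54.6, 56.7 and 62.3 CPM with adjudin and 63.1, 69.4 and 74.2 CPM with DMSO. The groups did not overlap, which was the case for 3 of the 16910 tested genes (0.0177%), and for no other tubulin. Its means were 57.1 ± 2.59 CPM with adjudin and 68.9 ± 3.20 CPM with DMSO, and its log2 fold change was -0.27 (SE 0.035). The 8 batches were alike except for batch 2: there Tubb3 had 62.3 CPM with adjudin and 63.1 CPM with DMSO, a log2 difference of -0.018, whereas the other batches lay between -0.34 and -0.26. Tubb3 was also even across DMSO samples, the SD of its log2 CPM (0.067) being in the lowest 1.19% of tested genes.

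Tubb2a and Tubb2b, the class II isotypes, lie side by side. Tubb2a (ENSMUSG00000058672, chromosome 13, 34074274 to 34078007, minus strand) had 64.3, 71.3 and 80.3 CPM with adjudin and 76.3, 82.6 and 103 CPM with DMSO. It was lower in 8 of 8 batches, with a log2 fold change of -0.22 (SE 0.035) and within-batch differences from -0.36 to -0.11. Tubb2b (ENSMUSG00000045136, chromosome 13, 34126748 to 34130466, minus strand), best known from developing brain, had 27.1, 41.5 and 48.5 CPM with adjudin and 27.5, 46.0 and 58.4 CPM with DMSO. Its level varied most between batches of the 10 genes, with an SD of log2 CPM of 0.36 over DMSO samples. The log2 fold change was -0.14 (SE 0.046) and the gene was not called. Its batches differed from each other, from -0.35 in batch 4 and -0.32 in batch 8 to 0.035 in batch 3, with the samples of batch 7 at the same 38.7 CPM.

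Tubb5 (ENSMUSG00000001525, chromosome 17, 35833921 to 35838306, minus strand), the class I isotype that most cells use, had 447, 552 and 673 CPM with adjudin and 481, 575 and 788 CPM with DMSO. It was lower in 8 of 8 batches, by log2 differences between -0.23 and -0.05, and its log2 fold change was -0.11 (SE 0.030). Among the 7 calls, given as a description, Tubb5 was not called with library size as the only scaling (log2 fold change -0.10), nor without batch 2 (-0.12), 3 (-0.10), 4 (-0.09), 5 (-0.10) or 8 (-0.11). Tubb4b (ENSMUSG00000036752, chromosome 2, 25222160 to 25224702, minus strand), the class IVb isotype that is abundant in cilia, had 143, 157 and 170 CPM with adjudin and 149, 168 and 182 CPM with DMSO. It was lower in 6 of 8 batches with a log2 fold change of -0.09 (SE 0.031), and it was called only when batch 6 was left out (-0.11).

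Tubb6, the class V isotype, had 120, 132 and 189 CPM with adjudin and 128, 155 and 210 CPM with DMSO. It was lower in 8 of 8 batches, from -0.28 in batch 8 to -0.05 in batch 6, with a log2 fold change of -0.15 (SE 0.029). Batch 4 held the highest Tubb6 and Tubb5 in both treatments.

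**Figure D2:**
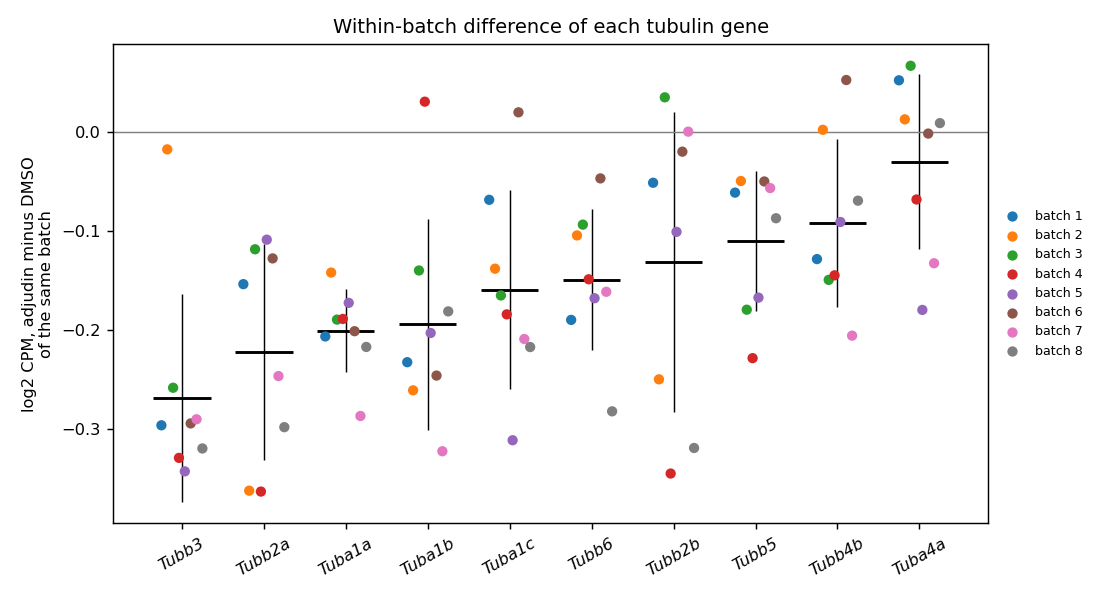
Difference in log2 CPM, adjudin minus DMSO, for each tubulin gene in each of the 8 batches (1 point per batch, coloured by batch), with a bar for the mean and a line for ± 1 SD over batches, genes ordered by fitted fold change. Nearly all points lie below 0, Tubb3 has 1 point near 0 (batch 2, -0.018), and Tuba4a is spread on both sides of 0.

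Batches differed in how far their tubulin genes were lower. The median log2 difference over the 10 genes was closest to 0 in batch 6 (-0.05, with 8 of 10 genes lower) and furthest from 0 in batch 8 (-0.22, with 9 of 10 lower). In batches 5 and 7 all 10 genes were lower. Genes of the same batch were read in the same pair of samples and are not independent of each other, and the labels do not say what the samples of a batch share.

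Summed CPM per kilobase was taken as the pool of alpha and of beta mRNA. Reads that fit several of Tuba1a, Tuba1b and Tuba1c may not have been counted. The alpha sum and its ratio to the beta sum may then be too low. The 4 alpha genes summed to 328 ± 27.8 with adjudin and 372 ± 24.3 with DMSO (SD, n = 8 each), a mean within-batch log2 difference of -0.18 ± 0.045. The 6 beta genes summed to 415 ± 37.6 with adjudin and 459 ± 53.6 with DMSO, a difference of -0.14 ± 0.050. Both sums were lower in 8 of 8 batches. For alpha and beta together the sum was 743 ± 47.2 with adjudin and 831 ± 59.3 with DMSO, and the differences of the 8 batches ranged only from -0.20 to -0.10. The ratio of alpha to beta averaged 0.796 with adjudin and 0.821 with DMSO and was lower in 7 of 8 batches. Its mean log2 difference (-0.043) was smaller than its SD over batches (0.072). Here and for the shares below, that SD is the spread of batches, not the error of the mean, and is no test.

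Isotype shares, the percentage of the summed alpha or beta CPM per kilobase, were similar under both treatments. Among alpha genes, Tuba1a made up 48.2 ± 1.84% with adjudin and 48.8 ± 1.86% with DMSO. Tuba1b made up 28.4 ± 0.967% and 28.7 ± 1.48%, and Tuba1c 17.9 ± 1.31% and 17.7 ± 1.75%, with adjudin and DMSO in that order. These 3 shares moved by less than their SD over batches. Tuba4a made up 5.47 ± 0.855% with adjudin and 4.91 ± 0.743% with DMSO, and its share was higher with adjudin in 8 of 8 batches, by 0.553 ± 0.287 percentage points. Its own CPM hardly differed while the other 3 alpha genes were lower.

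Among beta genes, Tubb5 held 39.7 ± 2.13% with adjudin and 38.9 ± 1.81% with DMSO, Tubb6 19.4 ± 1.80% and 19.5 ± 1.5%, and Tubb4b 18.3 ± 0.973% and 17.7 ± 1.38%. Tubb2a held 10.9 ± 1.08% with adjudin and 11.5 ± 1.32% with DMSO (-0.66 ± 0.86 percentage points, higher in 2 of 8 batches). Tubb3 held 7.42 ± 0.795% with adjudin and 8.10 ± 0.602% with DMSO, the one beta share that moved by more than its SD over batches (-0.673 ± 0.518 percentage points, lower in 7 of 8 batches). Tubb2b held 4.25 ± 0.928% and 4.24 ± 0.965%. The shares depend on the length used: without division by length, Tubb5 held 53.8% of beta reads with adjudin and 53.0% with DMSO, and Tuba4a 10.0% of alpha reads with adjudin and 9.07% with DMSO.

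**Figure D3:**
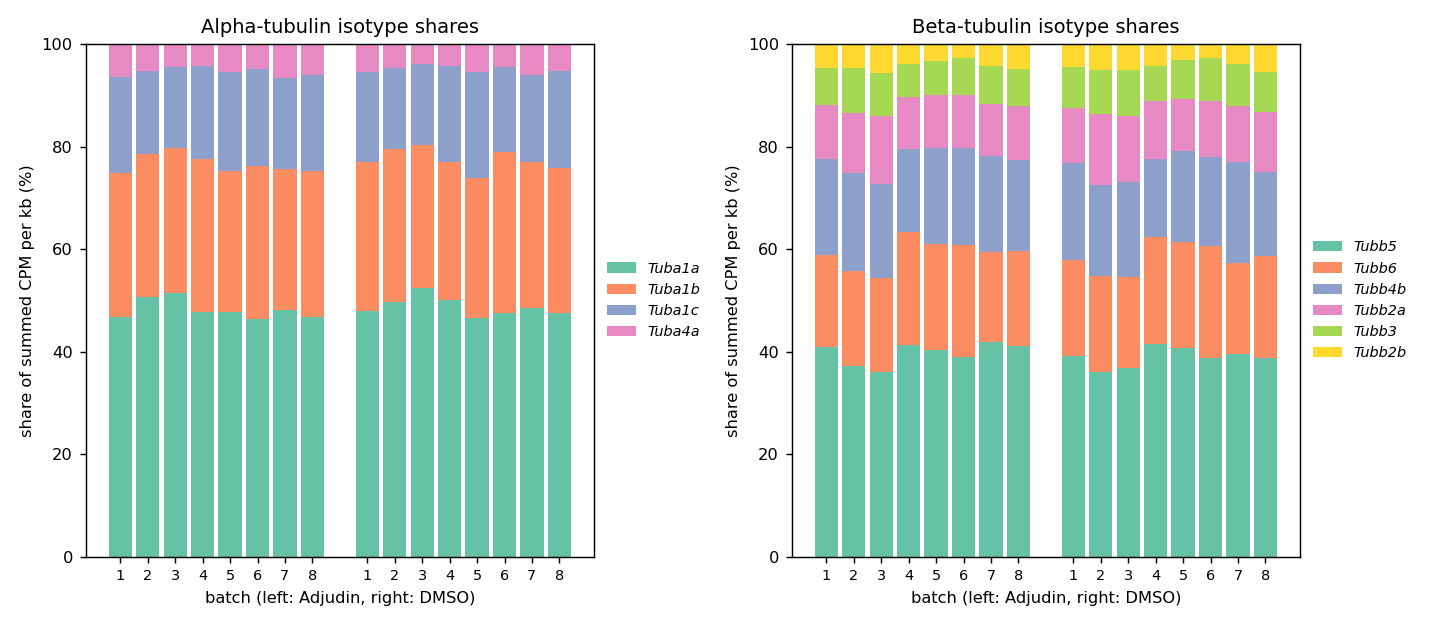
Share (%) of each isotype in the summed CPM per kilobase of alpha-tubulin (left panel) and beta-tubulin (right panel), 1 stacked bar per sample, with the 8 adjudin samples left of the 8 DMSO samples and batches numbered 1 to 8. The composition differs little between treatments, with Tuba1a near 48% of alpha and Tubb5 near 39% of beta in both.

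The isotypes did not vary together as 1 block. All r values below were taken across both treatments, without removing the difference between adjudin and DMSO. The tubulin genes were chosen partly on that difference, so r can reflect treatment as well as variation among islet samples. How much of each r came from treatment was not tested. Over the 16 samples, which share a batch in pairs, and in which all genes of a sample share its scaling, log2 CPM correlated between Tubb5 and Tubb6 (Pearson r 0.87), between Tubb4b and Tubb5 (0.80), and between Tuba1a and Tuba1b (0.87), the last being a pair with long identical stretches. Tuba1a and Tubb5, the most abundant alpha and beta genes, did not (r -0.086). Some other pairs of an alpha and a beta gene did, such as Tubb2a with Tuba1a (0.79), Tuba1b (0.76) and Tuba1c (0.76). Tuba4a had its highest r with Tubb2b (0.34). The tested genes most like each tubulin are given as a description, with no test. For Tubb5 they were Actb (r 0.98), Myo1c (0.97) and Ddb1 (0.96), and for Tubb6 Rflnb (0.97), Lrrc32 (0.97) and Mcm3 (0.97). Genes close to Tuba1a included Ogn (0.95) and Golga7 (0.93). Tuba1b was closest to Tcf21 (0.91), Ptpn7 (0.89) and Csrp2 (0.86), and Tuba1c to Tpm1 (0.94), Wnt9a (0.89) and Csrp1 (0.89). Tubb2a was closest to Medag (0.94), Fmod (0.92) and Fam198b (0.90), Tubb2b to Procr (0.94), Pafah1b3 (0.94) and Tpbg (0.94), and Tubb4b to Adsl (0.90), Eif4a3 (0.90) and Anxa5 (0.89). Of these, Actb encodes beta-actin, Tpm1 a tropomyosin that binds actin, and Ogn and Fmod proteoglycans of the extracellular matrix. Tubb3 had the weakest likenesses, to Xcr1 (0.83), Hoxa5 (0.81) and Medag (0.80), and Tuba4a was closest to Ftl1-ps1 (0.93), Tmem102 (0.91) and Jund (0.91).

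Markers of some other cells of the islet preparation were also lower with adjudin. Of 8 macrophage genes, 6 were called lower and 0 higher, and their summed level was 541 to 741 CPM with adjudin and 566 to 1047 CPM with DMSO, lower in 8 of 8 batches. Of 9 stellate cell and fibroblast genes, 5 were called lower and 0 higher, with sums of 9072 to 17460 CPM with adjudin and 9442 to 19490 CPM with DMSO, lower in 7 of 8 batches. Of 6 proliferation genes, 2 were called lower and 0 higher, with sums of 105 to 194 CPM with adjudin and 106 to 194 CPM with DMSO, lower in 8 of 8 batches. Of 8 beta cell genes, 2 were called higher and 0 lower, with sums of 39770 to 104500 CPM with adjudin and 35760 to 121000 CPM with DMSO. The other 8 lists gave 1 call in all, an endothelial gene called higher. Of 5 endothelial genes 1 was called higher and 0 lower, with sums of 215 to 665 CPM with adjudin and 188 to 585 CPM with DMSO, lower in 2 of 8 batches. Of 8 Schwann cell and neuron genes 0 were called, with a median log2 fold change of -0.11. Their sums were 40.3 to 54.7 CPM with adjudin and 34.8 to 55.8 CPM with DMSO, lower in 3 of 8 batches. On average most of the sum was Elavl4, with a mean of 32.8 CPM with adjudin and 31.3 CPM with DMSO. Of 7 acinar genes 0 were called, with a median log2 fold change of -0.24 and sums of 5320 to 10300 CPM with adjudin and 5009 to 12260 CPM with DMSO. The lists of alpha cell (6 genes), delta cell (4), PP cell (2) and duct genes (6) gave 0 calls as well, with medians of 0.13, 0.16, 0.028 and 0.023. Of 5 T and B cell genes 2 were tested and 0 called, and Cd3e, Cd3d and Ms4a1 were at 0 in some samples. Batch 4 had the lowest sum of beta cell markers and the highest sum of stellate and fibroblast markers in both treatments. Outside the T and B cell list, no marker was at 0 in any sample. Their part in the lower tubulin levels was not tested, and in bulk islets fewer cells of a type and less RNA per cell cannot be told apart.

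The other genes of the microtubule system, which were listed by function but with earlier results of these data known, showed few differences. Of 138 such genes in 8 lists, 132 were tested, and 1 was called higher and 2 lower (2.27%), with a median log2 fold change of -0.0022. The share over all tested genes was 5.24%.

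The remaining tubulin genes gave 0 calls in 7 tested, with a median log2 fold change of 0.06. In this list, 3 and 4 genes lay below and above 0, and edgeR's adjusted p was at least 0.0815 for every one. Tubb4a, the class IVa isotype of brain, averaged 15.4 ± 2.29 CPM with adjudin and 14.8 ± 2.70 CPM with DMSO (log2 fold change 0.06, SE 0.074, edgeR adjusted p 0.706). Tubg1, the gamma-tubulin of nucleation complexes, averaged 33.2 ± 3.80 CPM with adjudin and 34.9 ± 4.10 CPM with DMSO and was lower in 8 of 8 batches without passing the test (-0.07, SE 0.033, edgeR adjusted p 0.23). Its copy Tubg2 was at 10.3 CPM with adjudin and 9.61 CPM with DMSO (0.10, edgeR adjusted p 0.378). The tubulins of centrioles were low: Tubd1, delta-tubulin, was at 6.16 CPM with adjudin and 7.02 CPM with DMSO (-0.18, edgeR adjusted p 0.151). Tube1, epsilon-tubulin, was at 2.48 ± 0.372 CPM with adjudin and 1.90 ± 0.239 CPM with DMSO, higher in 8 of 8 batches, but did not pass (0.39, SE 0.12, edgeR adjusted p 0.0815). Tuba8 was low, at 1.99 CPM with adjudin and 2.01 CPM with DMSO (edgeR adjusted p 0.862) and 30 to 76 reads per sample. Tubb1, the isotype of platelets, was near the limit of the filter, with 11 to 34 reads per sample. It was at 0.866 CPM with adjudin and 0.774 CPM with DMSO (edgeR adjusted p 0.713). Tuba3a, Tuba3b and Tubal3 were not tested: Tuba3a had 15 reads over the 8 adjudin samples and 6 over the 8 DMSO samples, Tubal3 had 2 and 4, and Tuba3b had 0 in both.

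**Figure D4:**
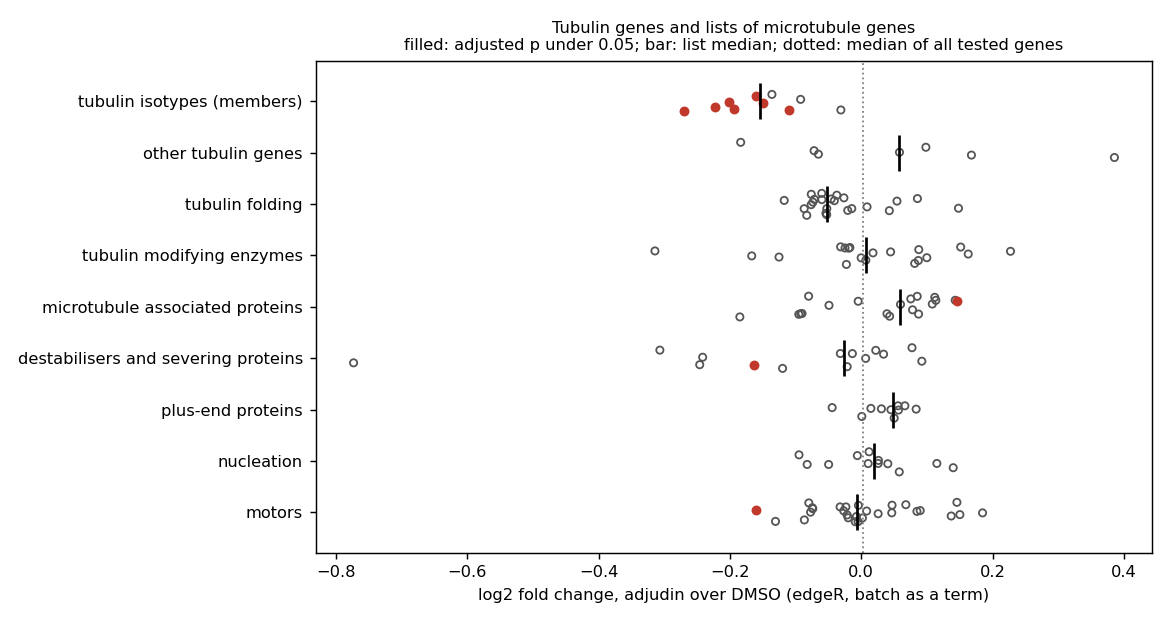
Log2 fold change, adjudin over DMSO, of the 10 tubulin isotype genes (top line) and of the tested genes of 8 lists of the microtubule system, 1 circle per gene, filled where edgeR's adjusted p was under 0.05, with a bar at each list's median and a dotted line at the median of all tested genes (0.0032). The isotype genes lie left of 0 with a median of -0.15, and the list medians lie between -0.05 (tubulin folding) and 0.06 (microtubule associated proteins).

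Genes for tubulin folding, the chaperonin, prefoldin and cofactors that make the dimer, listed together with Ttc5, gave 0 calls in 23. Their median was -0.05, with 18 of 23 below 0. Tbca, a cofactor that binds beta-tubulin, averaged 88.7 ± 26.2 CPM with adjudin and 96.0 ± 26.5 CPM with DMSO and was the most abundant per kilobase (log2 fold change -0.12, SE 0.043, edgeR adjusted p 0.124). Ttc5, the factor of tubulin mRNA control named above, had a log2 fold change of -0.020 (SE 0.040, edgeR adjusted p 0.818). Genes for enzymes that modify tubulin gave 0 calls in 19 tested of 22, with a median of 0.0070, and Hdac6, a tubulin deacetylase, was at 134 CPM with adjudin and 126 CPM with DMSO (0.10, SE 0.038, edgeR adjusted p 0.14).

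The microtubule-associated protein genes gave 1 call higher and 0 lower in 19, with a median of 0.06. The gene called was Map2, which binds along neuronal microtubules and stabilises them. It had 107 to 135 CPM with adjudin and 92.1 to 136 CPM with DMSO, and was higher in 7 of 8 batches, with batch 6 the exception (131 CPM with adjudin, 136 CPM with DMSO). Its log2 fold change was 0.15 (SE 0.039, edgeR adjusted p 0.0383), and it was called in 3 of the 8 fits that left out a batch, not without batch 3 (0.14), 4 (0.13), 5 (0.14), 7 (0.14) or 8 (0.14). Map7d1, the most abundant per kilobase, was at 187 CPM with adjudin and 200 CPM with DMSO and was lower in 8 of 8 batches without passing the test (-0.10, SE 0.028, edgeR adjusted p 0.0591).

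The list of destabilising and severing proteins gave 1 call lower and 0 higher in 14, with a median of -0.027. Stmn1, stathmin, which binds free tubulin dimers, had 27.9 to 36.7 CPM with adjudin and 26.5 to 40.1 CPM with DMSO, and was lower in 7 of 8 batches. Its log2 fold change was -0.16 (SE 0.045, edgeR adjusted p 0.0461), a call that held in 1 of the 8 fits with a batch left out (without batch 6) and was lost with library size as the only scaling. Leaving out batch 2, 3 or 7 gave Stmn1 a log2 fold change of -0.14, and leaving out batch 1, 4, 5 or 8 gave -0.17. Its relative Stmn3, the most abundant gene of the list per kilobase, had 19.0 to 34.6 CPM with adjudin and 17.6 to 31.4 CPM with DMSO (log2 fold change -0.021, edgeR adjusted p 0.875).

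The motor genes gave 1 call lower and 0 higher in 28, with a median of -0.0060. Dynll1, a light chain of dynein that also joins other complexes, had 116 to 143 CPM with adjudin and 119 to 162 CPM with DMSO, and was lower in 7 of 8 batches. Its log2 fold change was -0.16 (SE 0.035, edgeR adjusted p 0.0151), and it was not called without batch 3 (-0.15), batch 4 (-0.14) or batch 8 (-0.14). Its copy Dynll2 was at 334 CPM with adjudin and 315 CPM with DMSO and did not pass (0.09, SE 0.031, edgeR adjusted p 0.105). The difference between the 2 light chains was not tested.

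Plus-end proteins and nucleation genes gave 0 calls in 10 and in 12. Their medians were 0.05 and 0.019. Mapre1, the end-binding protein that was most abundant in the plus-end list per kilobase, was at 143 CPM with adjudin and 148 CPM with DMSO (edgeR adjusted p 0.373). Mzt1, a small subunit of the nucleating ring complex, was at 60.2 CPM with adjudin and 60.5 CPM with DMSO (edgeR adjusted p 0.947).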

How the data were processed

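Poly-A RNA of 16 islet samples (8 adjudin, 8 DMSO) was sequenced. The authors mapped read pairs to GRCm38 (HISAT2 2.0.5), ran featureCounts 1.5.0-p3 to count them per gene, and deposited these counts without normalisation. For strand setting and annotation release, nothing was given in the sources used here. The study left out aberrant islet batches. No 2 samples had identical counts.

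Counts were analysed in R 4.3.3 with the quasi-likelihood test of edgeR 4.0.16 (filterByExpr, TMM, batch and treatment as terms) and Benjamini-Hochberg adjustment over 16910 genes, threshold 0.05. The study names DESeq2 and no formula. The batch term comes from the numbers in the labels. Deviations from the treatment mean correlated at 0.371 to 0.69 within a number and at a median of -0.18 otherwise. Taking deviations from a mean of 8 samples by itself pulls the second value below 0 where numbers pair. SE was computed as the size of the log2 fold change divided by the root of F. Within-batch differences used a prior count of 2. Alternatives were DESeq2 1.42.0, limma 3.58.1 (voom), other scalings, filters and lengths, no batch term, and leaving out each batch. The fit was tested on simulated counts that held no differences between batches, so that test does not cover the batch term.

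The 10 genes, 8 pathway lists and marker lists were chosen with earlier results of these data known. Also named are the other tubulin genes, in each list the genes that passed (at most 4) and the most abundant per kilobase, and the 3 genes most like each tubulin, of which 1 is not reported here. Ttc5, Stk16, Gm3756, Gm49450 and Elavl4 were added after values were seen. Sequences are from GENCODE M21, and none is shown for Tubb6.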

Additional observations from a re-analysis of the deposited data

Results flagged for a closer look

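Of 59 sets of 8 values in which the highest or lowest was compared with the rest, 2 had a value far from the others (by the 95% limit of Dixon's test), and chance alone gives such a value in about 1 set in 20. The first was Tubb3 in batch 2, with a log2 difference between adjudin and DMSO of -0.018, where the other batches were at or below -0.26 (gap 0.74 of the range). The Tubb3 level was 62.3 CPM with adjudin, the highest of that treatment, and 63.1 CPM with DMSO, the lowest of that treatment. The second was the share of Tubb4b in summed beta-tubulin, 16.1% in the adjudin sample of batch 4 (gap 0.576 of the range). Batch 4 also had the lowest Tubb4b share among DMSO samples, 15.2%.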

How the results depend on the processing

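All 10 tubulin log2 fold changes kept their sign under every alternative run. With the 8 batches as a replicate block 886 genes were called (367 higher, 519 lower), 7 of them tubulin isotypes. Without the replicate block edgeR called 1 gene (590 at an unadjusted p under 0.05), 0 tubulin isotypes and 0 pathway genes. Without the filter on low counts 1577 genes were called (826 higher, 751 lower) and 11 pathway genes, and DESeq2 called 5 pathway genes, against 3. Leaving out 1 batch gave 412 (without batch 4) to 1071 (without batch 6) genes and 0 to 6 pathway genes, 0 without batch 3, 4 or 8. The tubulin calls are a description, since the genes were chosen on this contrast, and Tubb5 was lost with library size alone. Of the share values recomputed with other lengths or without a batch, 51 moved by more than 1 SD and 169 did not. All 51 came from a change of length, where most values moved. No share moved by more than 1 SD when a batch was left out. Coding length and principal transcript length were chosen after seeing the data: Tubb5 held 53.9% with adjudin and 53.1% with DMSO by coding length, and 43.0% with adjudin and 42.2% with DMSO by transcript length. Shares by RefSeq protein length were not run. Depth limits Tubb1, Tuba3a, Tuba3b and Tubal3.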
